A study of Mus musculus with 12 samples.

Results

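The 2057 regions of RNA described here are the peaks of SLM2 binding in whole brain of wild-type mice, out of 2235 peaks in the series, where the other 178 come from hippocampus. SLM2 is the RNA-binding protein encoded by *Khdrbs3*. In eCLIP, tissue is cross-linked by UV light, the protein is immunoprecipitated, and the RNA that stays attached to it is sequenced beside a size-matched input, which is RNA of the same gel region without immunoprecipitation. In total 12 libraries were made from mice of 30 days of age, with 2 eCLIP and 2 input libraries each for wild-type whole brain, wild-type hippocampus and *Slm2* knockout hippocampus. The knockout libraries were not analysed here. Tissue of every group was frozen, ground and irradiated 3 times with 400 mJ/cm2. All rows of the whole-brain list were kept, and each peak was given to the gene that holds its centre on the same strand in GENCODE vM21 on mm10, with protein-coding genes before non-coding ones and then the longest gene. Every one of the 2057 peaks found a gene.

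SLM2 belongs to the STAR family of RNA-binding proteins, which also includes SLM1, SAM68 and Quaking. These proteins recognize short A- and U-rich elements through a KH domain, act as dimers and regulate alternative splicing from sites in introns. In the brain, SLM2 is made in selected classes of neurons and is best known for its control of neurexin splicing.

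The list reports each peak as 1 merged result of the 2 replicates, with a log2 fold change of eCLIP over input, a −log10 p and a −log10 IDR, the irreproducible discovery rate of the 2 replicates. It carries no read counts, so the depth behind a single peak is unknown and peak numbers have no spread between replicates. Beside shares, exact (Clopper-Pearson) 95% intervals are given that include counting error alone, and peaks of 1 gene are not independent. The log2 fold changes ran from 2.00 to 6.04 with a median of 2.56, and peaks were 4 to 600 nt long with a median of 106 nt. Of 27 peaks under 30 nt, 20 were the only peak of their gene, and 4 of the 5 peaks with a log2 fold change above 5 were that short. Peaks were found on every chromosome, from 2 on chromosome Y to 157 on chromosome 6.

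The strongest peak of 50 to 300 nt in each of the 5 genes with the most peaks is shown first, because these sequences differ in how many copies of the motif of the STAR family they hold. Sequences are from the GRCm38 genome, which is the build called mm10, and are written 5′ to 3′ on the strand of the gene with T for U. Capitals mark UWAA, that is TTAA or TAAA on that strand only. Both forms overlap in TTAAA, which counts as 2.
Rbfox3, chr11:118848705-118848826, minus strand: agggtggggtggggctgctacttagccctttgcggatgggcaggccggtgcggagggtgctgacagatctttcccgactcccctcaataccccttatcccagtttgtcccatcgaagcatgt
Ptprd, chr4:77913774-77913857, minus strand: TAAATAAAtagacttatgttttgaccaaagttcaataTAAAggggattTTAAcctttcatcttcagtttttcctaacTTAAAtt
Cadm2, chr16:67024814-67025007, minus strand: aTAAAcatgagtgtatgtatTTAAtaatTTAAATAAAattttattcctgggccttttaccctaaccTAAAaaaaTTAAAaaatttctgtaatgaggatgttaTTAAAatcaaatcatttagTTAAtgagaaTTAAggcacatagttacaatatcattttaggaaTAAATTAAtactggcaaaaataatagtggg
Pcdh9, chr14:93557181-93557254, minus strand: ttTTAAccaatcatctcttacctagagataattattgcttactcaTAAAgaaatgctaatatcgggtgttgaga
Nrg3, chr14:38903514-38903616, minus strand: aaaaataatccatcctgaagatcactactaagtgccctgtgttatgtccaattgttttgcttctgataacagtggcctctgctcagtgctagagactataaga
The *Cadm2* sequence of 194 nt held 14 starts of UWAA and the *Ptprd* sequence of 84 nt held 6. The *Pcdh9* sequence held 2. The sequences of *Rbfox3* and *Nrg3* held none, although their log2 fold changes of 4.27 and 4.16 were above those of *Cadm2* (3.76) and *Pcdh9* (3.44). Over the whole list, 1686 of 2057 peaks (82.0%, 95% interval 80.2 to 83.6) held at least 1 UWAA, against 67.5% of 4114 windows of the same lengths placed 500 nt outside each end of the peaks.

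Binding was concentrated in few genes. The 2057 peaks fell in 434 genes, of which 414 were protein-coding, so that 1.89% of the 21951 protein-coding genes held a peak. *Rbfox3*, which encodes the neuronal splicing regulator known as NeuN, held 102 peaks, or 4.96% of the list (4.06 to 5.99). It was followed by *Ptprd* with 87, which encodes a receptor phosphatase of the presynaptic membrane, and by the immunoglobulin adhesion molecule gene *Cadm2* with 73. *Pcdh9*, a protocadherin gene, held 64, and *Nrg3*, which encodes a ligand of the receptor ERBB4, held 56. *Syt1*, the gene of the calcium sensor of synaptic vesicles, held 55. The scaffold gene *Dlg2* held 51. *Csmd1*, which encodes a large membrane protein with complement control domains, held 47. The postsynaptic adhesion genes *Lrrtm4*, *Adgrb3* and *Nlgn1* held 43, 38 and 35.
At the other end, 248 genes (57.1%) held 1 peak each, and these peaks made up 12.1% of the list (10.7 to 13.5). Another 109 genes held 2 to 4 peaks, 28 held 5 to 9 and 25 held 10 to 19. The 24 genes with 20 or more peaks were 5.53% of the genes and held 1013 peaks (49.2%, 47.1 to 51.4). The 10 genes with the most peaks held 629 (30.6%, 28.6 to 32.6). With a minimum log2 fold change of 3, which kept 464 peaks, genes with at least 5 peaks held 43.5% of the peaks in place of 73.8%, and at a minimum −log10 IDR of 3, which kept 337 peaks, they held 58.5%.

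**Figure D1:**
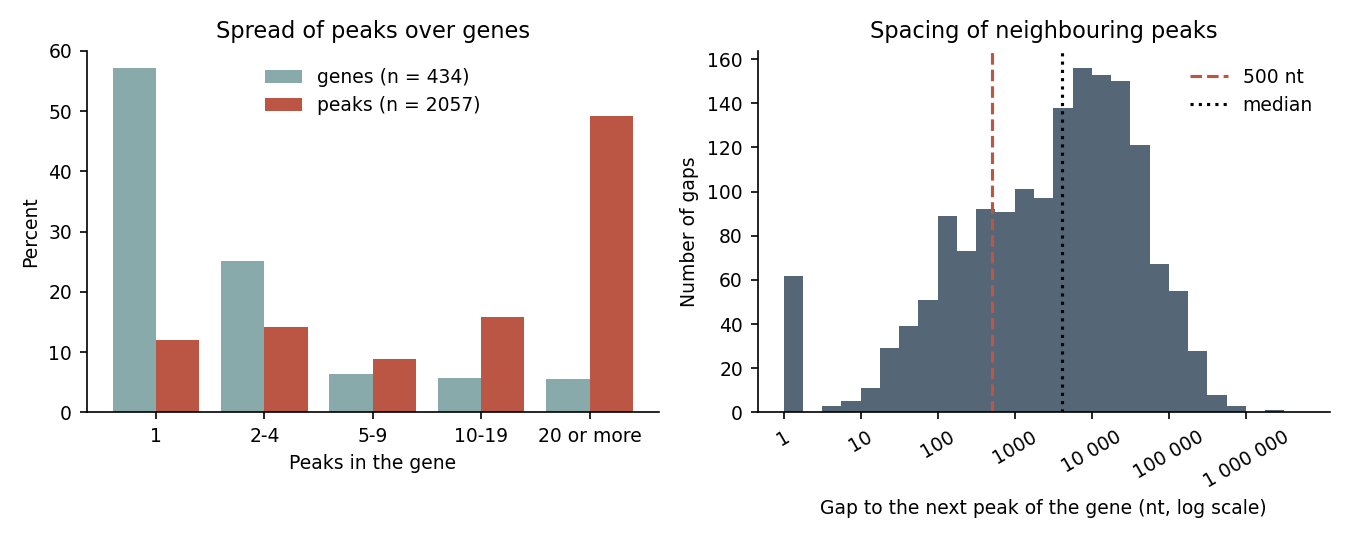
Left, percent of the 434 genes (grey) and of the 2057 peaks (red) by the number of peaks in the gene; genes with 1 peak are 57.1% of genes and hold 12.1% of peaks, while the 24 genes with 20 or more peaks hold 49.2%. Right, histogram of the 1623 gaps between neighbouring peaks of a gene on a log axis in nt, with the limit of 500 nt for a cluster (dashed) and the median of 4070 nt (dotted); the isolated bar at the left holds 62 gaps of 1 nt.

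Long genes held most of the peaks. Among protein-coding genes shorter than 10 kb, 7 of 7787 held a peak (0.0899%, 0.0361 to 0.185). The share was 1.55% between 30 and 100 kb (80 of 5170), 6.86% between 100 and 300 kb (132 of 1925) and 26.6% between 300 and 1000 kb (135 of 508, with 940 peaks). Of the 59 genes of 1000 kb or more, 39 (66.1%, 52.6 to 77.9) held a peak, 20 held at least 5, and together they had 568 peaks. Read depth over a gene and its abundance in brain RNA are not in the list, and their part in this order was not tested. Within the 434 genes the number of peaks was loosely related to gene length (Spearman correlation 0.42 across genes, which are not independent replicates). In 77 genes with at least 5 peaks, density had a median of 2.85 peaks per 100 kb and ranged from 0.457 to 53.0. The long genes at the head of the list were not the densest. *Ptprd*, with 2271 kb, had 3.83 peaks per 100 kb and *Dlg2*, with 1973 kb, had 2.59. The densest was *Neat1*, the 20.8 kb long non-coding RNA that builds nuclear paraspeckles, with 11 peaks and 53.0 per 100 kb. *Grm4*, the gene of a metabotropic glutamate receptor, had 31 peaks and 31.3 per 100 kb, and *Rbfox3* had 24.2. The non-coding genes *A330076H08Rik* and *Gm26871* had 15.3 and 14.0.

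Neighbouring peaks of a gene lay closer together than an even spread over the gene would place them. The 186 genes with at least 2 peaks gave 1623 gaps with a median of 4070 nt (quartiles 412 and 20990 nt), and the largest gap was 2.86 Mb. The median was 22.6 kb with a minimum log2 fold change of 3 and 8.395 kb at a minimum −log10 IDR of 3. Of these gaps, 437 (26.9%, 24.8 to 29.2) were of at most 500 nt and 95 (5.85%) were above 100 kb. Division of the gene length by the number of peaks gives the spacing that an even spread would have. In 77 genes with at least 5 peaks the median gap was 0.155 of that spacing (quartiles 0.0705 and 0.269). It was below 0.5 of it in 74 genes and above it in none. The ratio was 0.51 in *Pcdh9*, 0.45 in *Lrrtm4* and 0.26 in *Rbfox3*, whose median gap was 1.09 kb. It was 0.01 in *Csmd1*, *Grik2* and *Nrxn2*. A median gap falls short of the mean gap in any skewed set, so the ratio describes these genes and is not a test.
A total of 62 gaps in 38 genes measured exactly 1 nt, and none measured 0, 2 or 3 nt. The 122 peaks on both sides of them were thus parted from a neighbour by a single base. Whether such neighbours are 1 stretch of signal was not tested. When peaks with gaps of at most 50 nt were joined, 1922 sites were left, the median gap was 5.61 kb, and 20.3% of gaps were of at most 500 nt.

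Peaks gathered in clusters, defined as runs of at least 2 peaks of a gene with gaps of at most 500 nt. There were 270 clusters in 95 genes, and they held 707 of the 2057 peaks (34.4%, 32.3 to 36.5). The share followed the definition. It was 17.8% at gaps of at most 100 nt, 58.9% at gaps of at most 5000 nt and 16.2% with at least 3 peaks a cluster, and with a minimum log2 fold change of 3 it was 17.7%. Most were pairs (187), 83 held 3 or more peaks, and 17 held 5 or more. Their width had a median of 454 nt (quartiles 296 and 641). *Rbfox3* had the most clusters, with 18 that took 50 of its 102 peaks, and *Ptprd* and *Syt1* had 12 each. Of 49 genes with at least 10 peaks, 17 had 50% or more of their peaks in clusters, among them *Csmd1* (30 of 47), *Mdga2* (17 of 28) and *Grm4* (19 of 31), and 2 had none in a cluster. *Fgf14*, which encodes an intracellular partner of sodium channels, was one of them, with 11 peaks over 643 kb, and the AMPA receptor subunit gene *Gria4* was the other, with 10 peaks over 327 kb. The median log2 fold change was 2.56 for clustered peaks and 2.55 for the other peaks.
The cluster with the most peaks lay in intron 1 of *Csmd1* (chr8:17429532-17435240), where 24 peaks with log2 fold changes of 2.00 to 3.71 covered 48.3% of 5709 nt. The next largest held 9 peaks each. One was in intron 1 of *Mdga2* (chr12:67050220-67051849), the gene of a membrane-anchored protein that binds neuroligins, and the other in *Neat1* (chr19:5842454-5844226). In *Nrxn2* (chr19:6513234-6514936) 8 peaks with a median log2 fold change of 3.19 covered 44.2% of 1703 nt in introns 19 and 20. In *Grik2*, which encodes a kainate receptor subunit, 7 peaks stood in intron 12 (chr10:49257153-49258841). In *Gria2*, which encodes an AMPA receptor subunit, 6 peaks stood in intron 11 (chr3:80703413-80704384). The clusters of *Csmd1* and *Mdga2* stood deep inside introns of 318 and 352 kb, whereas that of *Gria2* lay in an intron of 4.23 kb, at least 788 nt from the 3′ splice site.

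The 9 peaks of the *Mdga2* cluster are shown in full, in the order of transcription, because they show how the motif was spread over a close group of peaks in a protein-coding gene outside the synaptic families defined below; capitals again mark UWAA.
Mdga2, chr12:67051775-67051849, minus strand: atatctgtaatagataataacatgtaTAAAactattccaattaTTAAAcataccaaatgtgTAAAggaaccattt
Mdga2, chr12:67051600-67051664, minus strand: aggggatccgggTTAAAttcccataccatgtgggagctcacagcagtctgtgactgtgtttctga
Mdga2, chr12:67051520-67051598, minus strand: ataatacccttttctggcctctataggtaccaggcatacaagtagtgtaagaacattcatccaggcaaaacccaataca
Mdga2, chr12:67051261-67051429, minus strand: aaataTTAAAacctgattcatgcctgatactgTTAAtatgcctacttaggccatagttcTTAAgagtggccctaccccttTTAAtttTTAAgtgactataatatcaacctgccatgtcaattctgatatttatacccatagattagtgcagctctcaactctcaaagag
Mdga2, chr12:67051097-67051205, minus strand: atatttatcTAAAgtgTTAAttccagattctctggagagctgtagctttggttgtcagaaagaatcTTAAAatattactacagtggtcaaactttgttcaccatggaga
Mdga2, chr12:67050775-67050853, minus strand: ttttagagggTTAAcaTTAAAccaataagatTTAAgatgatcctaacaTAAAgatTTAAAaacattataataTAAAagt
Mdga2, chr12:67050615-67050737, minus strand: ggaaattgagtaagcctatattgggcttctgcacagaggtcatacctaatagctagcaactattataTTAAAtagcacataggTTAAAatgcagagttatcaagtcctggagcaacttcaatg
Mdga2, chr12:67050291-67050357, minus strand: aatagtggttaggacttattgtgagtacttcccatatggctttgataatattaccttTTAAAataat
Mdga2, chr12:67050220-67050289, minus strand: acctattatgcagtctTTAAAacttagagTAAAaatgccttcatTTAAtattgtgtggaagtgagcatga
Of these 9 sequences, 8 held UWAA, with 2 to 8 starts each, and the peak without it had a neighbour at a gap of 1 nt. Their log2 fold changes lay between 2.16 and 3.05. UWAA was held by 82.6% of all clustered peaks (79.6 to 85.3) and by 81.6% of the others (79.5 to 83.7). Among the 119 peaks in clusters of 5 or more the share was 73.1% (64.2 to 80.8), and the windows 500 nt away, which can fall inside the same cluster, held it in 64.3%.

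UWAA was very unevenly shared out among genes with many peaks. Of the 49 genes with at least 10 peaks, 14 had UWAA in every peak and 31 in at least 90% of peaks, while 4 had it in fewer than 50%. All 73 peaks of *Cadm2* and all 43 of *Lrrtm4* held it, and so did all 22 of *Grik2*. In *Dlg2* 49 of 51 peaks held it, or 96.1%. The 4 genes at the other end were *Grm4* (2 of 31 peaks, 6.45%), *Rbfox3* (31 of 102, 30.4%), *Mbp* (4 of 13, 30.8%), which encodes myelin basic protein, and *Ppp2r2c* (4 of 11, 36.4%), which encodes a regulatory subunit of protein phosphatase 2A. Windows 500 nt away held it in 24.2% for *Grm4*, 27.0% for *Rbfox3*, 42.3% for *Mbp* and 27.3% for *Ppp2r2c*, against 81.5% for *Cadm2*. The peaks of these genes were also lower in A and T, with medians of 39.8% in *Grm4* and 43.6% in *Rbfox3* against 68.8% in *Cadm2*. Across the 49 genes the AT content and the share with UWAA rose together (Spearman correlation 0.72, as a description). Base composition alone changes how often 4 letters occur, so the 2 measures are not independent.
Without *Rbfox3*, 84.7% of peaks held UWAA, and with 50 nt added at each end of all peaks 91.2% did. In *Grm4* the added 50 nt raised the number from 2 to 15 of 31 peaks, and in *Rbfox3* from 31 to 56 of 102. The letters not being in a window says nothing of how SLM2 reached that RNA.

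**Figure D2:**
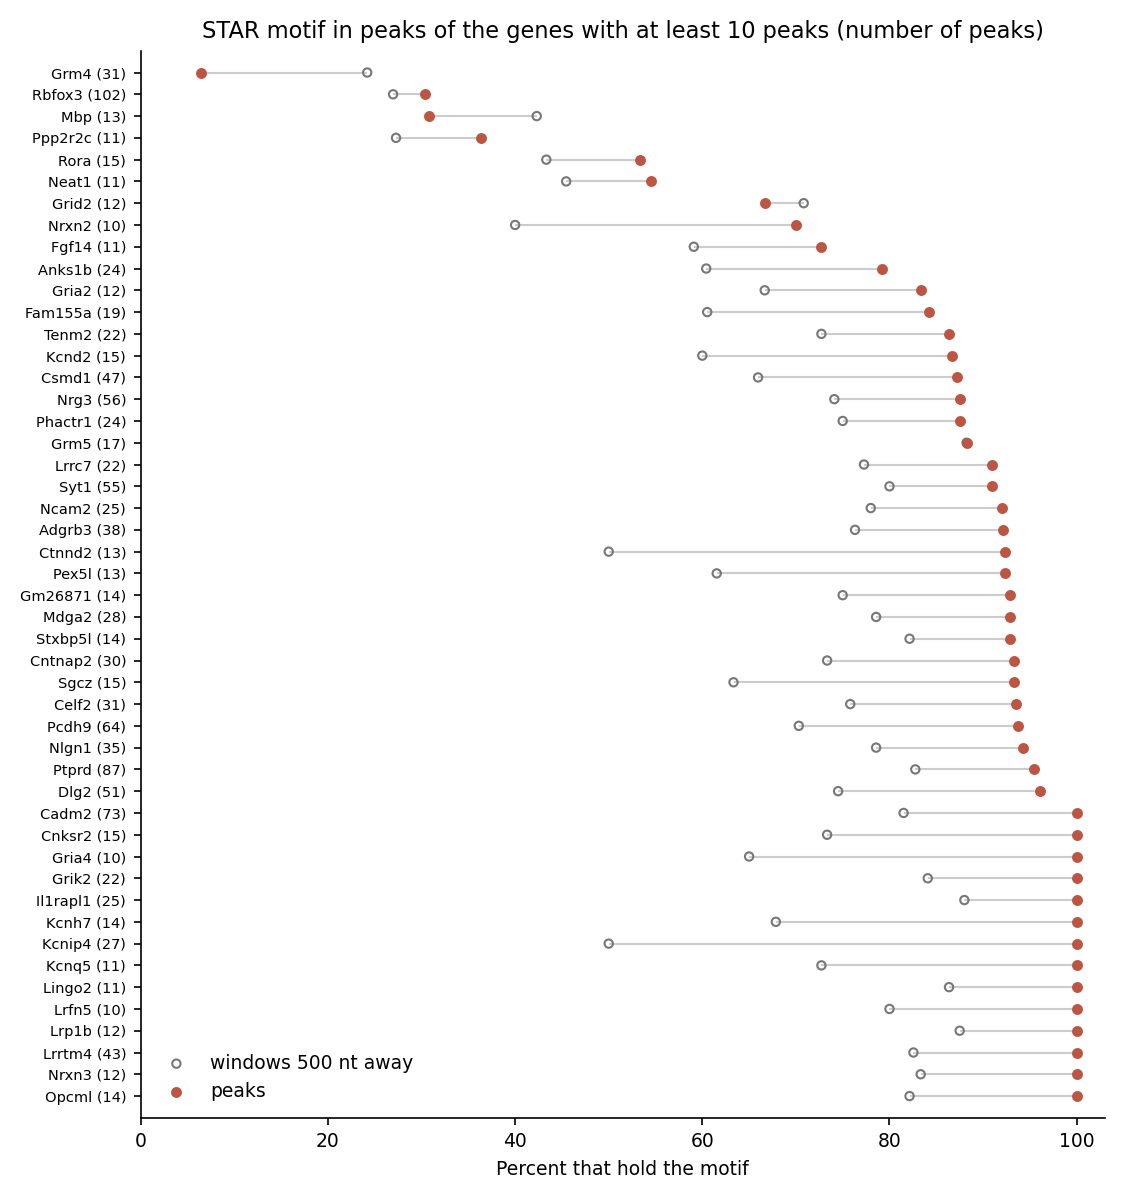
Percent of peaks (filled) and of windows of the same lengths 500 nt away (open) that hold the UWAA motif, for 48 of the 49 genes with at least 10 peaks, ordered from the lowest share; the number of peaks is in brackets. Grm4 is at 6.45% and Rbfox3 at 30.4%, both near or below their neighbouring windows, while 14 genes are at 100%.

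Peaks lay toward the start of genes. With 0 at the start and 1 at the end of the gene, the median position was 0.367 (quartiles 0.169 and 0.612). From the first to the last, the 5 equal parts of the gene held 28.9% (26.9 to 30.9), 23.9%, 21.1%, 16.9% and 9.33% (8.11 to 10.7) of the peaks. The first 10% of the gene held 323 peaks and the last 10% held 67. With each gene counted once by its median peak, the share in the first part was 25.6% and the median position 0.41, so the slope was smaller when genes with many peaks had no more weight than others. Among the 248 genes with 1 peak the median position was 0.432, and 137 of these peaks (55.2%, 48.8 to 61.5) were in the first 50% of the gene, an interval that includes an even split. Of 77 genes with at least 5 peaks, 50 (64.9%, 53.2 to 75.5) had their median peak there. Input coverage along the gene is not in the list, and its part in this slope was not tested.
Genes with many peaks differed widely in where the peaks lay. The earliest medians among genes with at least 10 peaks were 0.06 in *Csmd1*, 0.07 in *Ctnnd2*, which encodes a neuronal catenin, 0.09 in *Pex5l*, whose product TRIP8b binds HCN channels, and 0.10 in *Cntnap2*, a neurexin-related gene in which 29 of 30 peaks were in intron 1. The latest were 0.81 in *Gria2*, 0.79 in *Mbp*, 0.78 in *Stxbp5l*, which encodes a syntaxin-binding protein, and 0.78 in *Anks1b*, which encodes a postsynaptic ankyrin-repeat protein. The stretch from the outermost peak to the other also varied. It was 1975 kb in *Ptprd* (87.0% of the gene), 1272 kb in *Nrxn3*, 1243 kb in *Dlg2*, 1199 kb in *Il1rapl1* and 972 kb in *Opcml*. By contrast the 10 peaks of *Nrxn2* lay within 2.87 kb, which is 2.29% of the gene. Those of *Neat1* spanned 7.63 kb, of *Mbp* 28.2 kb, of *Stxbp5l* 45.3 kb and of *Ppp2r2c* 45.4 kb. In 35 of the 49 genes with at least 10 peaks the stretch covered 50% or more of the gene.

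**Figure D3:**
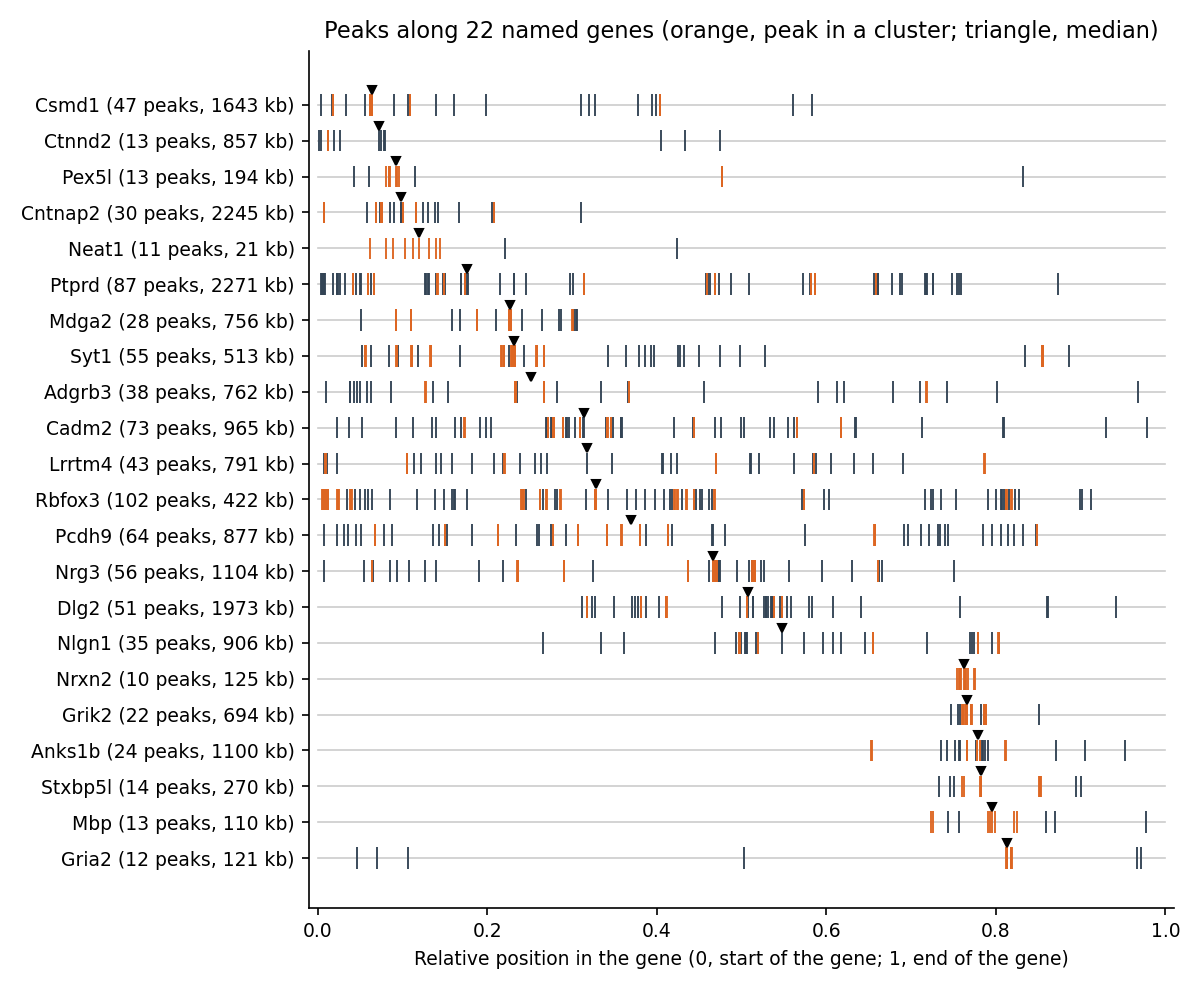
Position of every peak (vertical line) along 22 genes named for their number of peaks, clusters or median position, scaled from the start (0) to the end (1) of each gene; orange lines are peaks in clusters and triangles are medians. Peaks of Rbfox3 and Ptprd reach over most of the gene, although the median of Ptprd is at 0.176. Those of Nrxn2, Grik2 and Stxbp5l sit in the last 30% of the gene, and those of Csmd1 and Cntnap2 lean to the start.

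Introns were numbered in the coding transcript with the longest span, which placed 1899 of the 2004 peaks of protein-coding genes in an intron. Of the remaining peaks, 18 lay in an exon of that transcript, and 87 lay outside its span, 77 of them in *Ptprd*, upstream of its annotated coding transcripts. Intron 1 held 667 of the 1899 peaks (35.1%, 33.0 to 37.3), intron 2 held 428 (22.5%) and intron 3 held 198 (10.4%). In the same genes, weighted by peaks, intron 1 made up 28.9% of intronic bases. With each gene counted once, intron 1 held 30.9% of peaks and 31.0% of intronic bases. In the transcript with the most exons it held 31.5% of peaks and 26.4% of bases. Among 73 genes with at least 5 intronic peaks, the share of peaks in intron 1 was above its share of bases in 31, and 34 had no peak there.
For the longest intron the margin over its bases was wider. It held 1216 of 1899 peaks (64.0%, 61.8 to 66.2) and 44.9% of the intronic bases, and with each gene counted once 62.2% and 46.2%. Its share of peaks was above its share of bases in 56 of the 73 genes, and in 24 of them it held all intronic peaks. *Phactr1*, which encodes a regulator of actin and protein phosphatase 1, had all 24 peaks in its longest intron, which made up 54.5% of its intronic bases. All 28 peaks of *Mdga2* were in intron 1, which is also its longest, at 47.2% of the bases. In *Nlgn1* 32 of 35 peaks were in the longest intron at 52.8% of the bases. The other way round, none of the peaks of *Grik2*, *Stxbp5l* and *Nrxn2* was in the longest intron.
The introns that held peaks had a median length of 202 kb, and 68.8% of intronic peaks (66.7 to 70.9) were in introns of at least 100 kb. The median distance was 51.1 kb from the 5′ splice site upstream and 115 kb from the 3′ splice site downstream. By the coding transcript with the longest span, 56 intronic peaks (2.95%, 2.24 to 3.81) were within 500 nt of an end of their intron. Of these, 36 were downstream of the 5′ splice site and 21 upstream of the 3′ splice site, with 1 peak counted at both. Exons found only in other transcripts were not used for these distances.

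**Figure D4:**
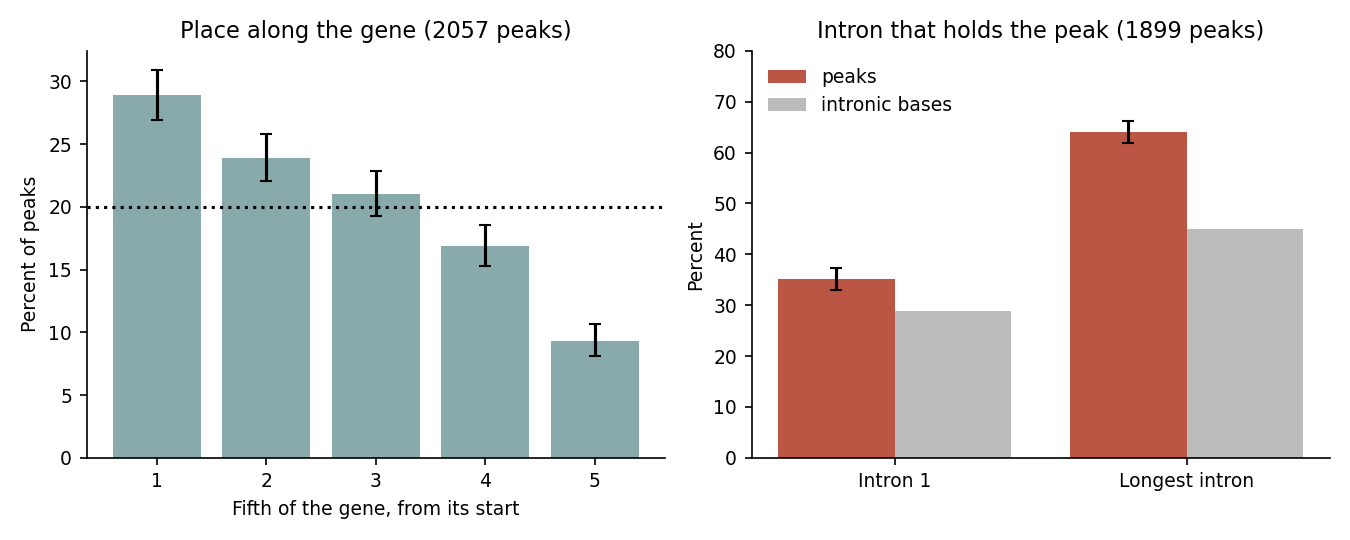
Left, percent of the 2057 peaks in each of 5 equal parts of the gene with exact 95% binomial intervals; the share falls from 28.9% to 9.33%, and the dotted line marks equal shares. Right, percent of 1899 intronic peaks in intron 1 and in the longest intron (red, same intervals) beside the percent of intronic bases there (grey), 35.1% beside 28.9% and 64.0% beside 44.9%.

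Targets outside the synapse were counted in families of genes defined by their symbols, with 1 collection of synaptic, adhesion and ion channel families set apart. That collection had 605 genes, of which 110 (18.2%, 15.2 to 21.5) held 1161 peaks (56.4% of the list). The other 304 protein-coding targets held 843 peaks (41.0%, 38.8 to 43.1), and 20 non-coding genes held 53. Outside the synaptic collection, 1.42% of protein-coding genes held a peak, and 9.31% of those of at least 100 kb did. Among all protein-coding genes of at least 100 kb the share was 12.3%. Targets in the synaptic collection had a median of 3 peaks and 37.3% had a single peak. Targets in other families had a median of 1 peak, and 66.0% had a single peak. The target genes also differed in length, with medians of 483 kb in the synaptic collection and 272 kb in other families. The part of length in this contrast was not tested. Symbols capture families incompletely. Some genes counted outside the collection act at synapses, both in other families, such as *Anks1b* among the cytoskeletal genes, and among the 160 without a family.
RNA-binding proteins and splicing regulators were represented by 15 of 204 genes (7.35%, 4.17 to 11.8) with 159 peaks. After *Rbfox3* the most peaks were in *Celf2* (31), which encodes a splicing regulator of the CELF family, and *Celf4* had 4. *Khdrbs3*, the gene of SLM2 itself, and *Khdrbs2*, the gene of SLM1, held 1 peak each, as did the STAR family gene *Qk*.
Of 722 transcription factor genes 16 held a peak (2.22%, 1.27 to 3.58), near the 1.89% of all protein-coding genes. *Rora*, which encodes a nuclear receptor needed by Purkinje cells, had 15 peaks and *Mef2c*, which encodes a factor of excitatory neurons, had 8. *Zfp385b* had 5 and *Myt1l* had 2. Of 161 chromatin regulators 12 held a peak (7.45%, 3.91 to 12.7), led by the DNA methyltransferase gene *Dnmt3a* and by *Setd5* with 3 each. *Phf14* had 2, and *Cdyl*, which encodes a corepressor, had 1 with a log2 fold change of 4.94.
In the signalling families the shares ran from 2.80% to 7.43%, beside the 1.89% of all protein-coding genes. Protein kinases had 10 of 223 genes with a peak (4.48%), among them *Prkg1*, *Tnik* and *Mapk10* with 3 peaks each and *Pak7* with 2. Protein phosphatases had 7 of 157 (4.46%), led by the phosphatase 2A subunit genes *Ppp2r2c* (11 peaks) and *Ppp2r2b* (3). Enzymes of cyclic nucleotide and inositol lipid signalling had 9 of 122 (7.38%), with 4 peaks each in the phospholipase gene *Plcb1* and the phosphodiesterase gene *Pde4d*. Regulators of small GTPases had 11 of 148 (7.43%), led by *Ralgapa1* with 5. G proteins and their receptors other than those for glutamate and GABA had 6 of 214 (2.80%), with 2 peaks in *Gnb1*. The intervals of protein phosphatases and of these G protein genes included 1.89%, and those of the other signalling families lay above it.
Cytoskeletal proteins and linkers had 13 of 174 genes with a peak (7.47%, 4.04 to 12.4) and 73 peaks. The share of all protein-coding genes was 1.89%. *Anks1b* had 24, the sarcoglycan gene *Sgcz* had 15, *Ctnnd2* had 13 and the alpha-catenin gene *Ctnna2* had 7. Microtubule and actin motors had 4 of 113 (3.54%, 0.973 to 8.82), each with 1 peak. Glycosyltransferases and sulfotransferases had 9 of 158 (5.70%, 2.64 to 10.5), with 3 peaks in the heparan sulfate sulfotransferase gene *Hs6st3*. Pumps and ABC transporters had 5 of 90 (5.56%, 1.83 to 12.5), with 2 peaks in the calcium pump gene *Atp2b2*. Solute carriers had 5 of 356 (1.40%, 0.458 to 3.25), with 5 peaks in *Slc24a2* and 4 in *Slc8a1*, which both encode sodium/calcium exchangers. The intervals of motors, pumps and solute carriers included 1.89%.
In families of general cell maintenance and of olfaction the shares lay near or below 1.89%. Ubiquitin ligases, conjugating enzymes and proteases had 6 of 414 genes with a peak (1.45%), led by *Otud7a* with 3. Membrane traffic genes had 4 of 327, led by *Nbea* with 3, and the family of matrix proteins, cadherins and integrins 5 of 215, led by *Cdh10* with 3. Mitochondrial and peroxisomal genes had 3 of 270, of which *Oxr1* held 8 peaks and *Ndufv2* 1; the other was *Pex5l*, whose symbol also counts it among the synaptic families. Centrosome and cilium genes had 3 of 389. The symbols of ribosomal proteins found 1 of 102, *Rps6ka3*, which encodes a kinase and not a ribosomal protein. None of 113 genes of DNA repair and replication held a peak, and none of 1420 olfactory and vomeronasal receptor genes did. These families differ in gene length: members had a median of 3.50 kb among ribosomal proteins and 6.34 kb among olfactory receptors, against 113 kb among GTPase regulators.
Restriction to genes of at least 100 kb changed the picture for some families. Of such RNA-binding protein genes 9 of 32 held a peak (28.1%), and of such chromatin regulators 11 of 44 (25.0%), beside 12.3% of all genes of that length. GTPase regulators stood at 12.5% (10 of 80), protein kinases at 10.0% (8 of 80), transcription factors at 13.5% (13 of 96) and matrix proteins, cadherins and integrins at 4.26% (4 of 94).
Single short peaks carried some of these counts. The only peaks of *Slc9a9* (log2 fold change 5.97), *Dock1* (5.19), *Zfp536* (4.81), *Pard3b* (4.71), *Fgfr1* (3.66), *Frem2* (3.96) and *Myo16* (2.92) were 22 to 28 nt long. Without peaks under 30 nt, 414 genes were left of 434, and 287 of 304 protein-coding genes outside the synaptic collection. At a minimum −log10 IDR of 3, members with a peak fell from 10 to 0 among protein kinases. They fell from 9 to 0 among glycosyltransferases and sulfotransferases, and from 15 to 5 among RNA-binding proteins. All protein-coding targets outside the synaptic collection fell from 304 to 65 at that threshold.

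**Figure D5:**
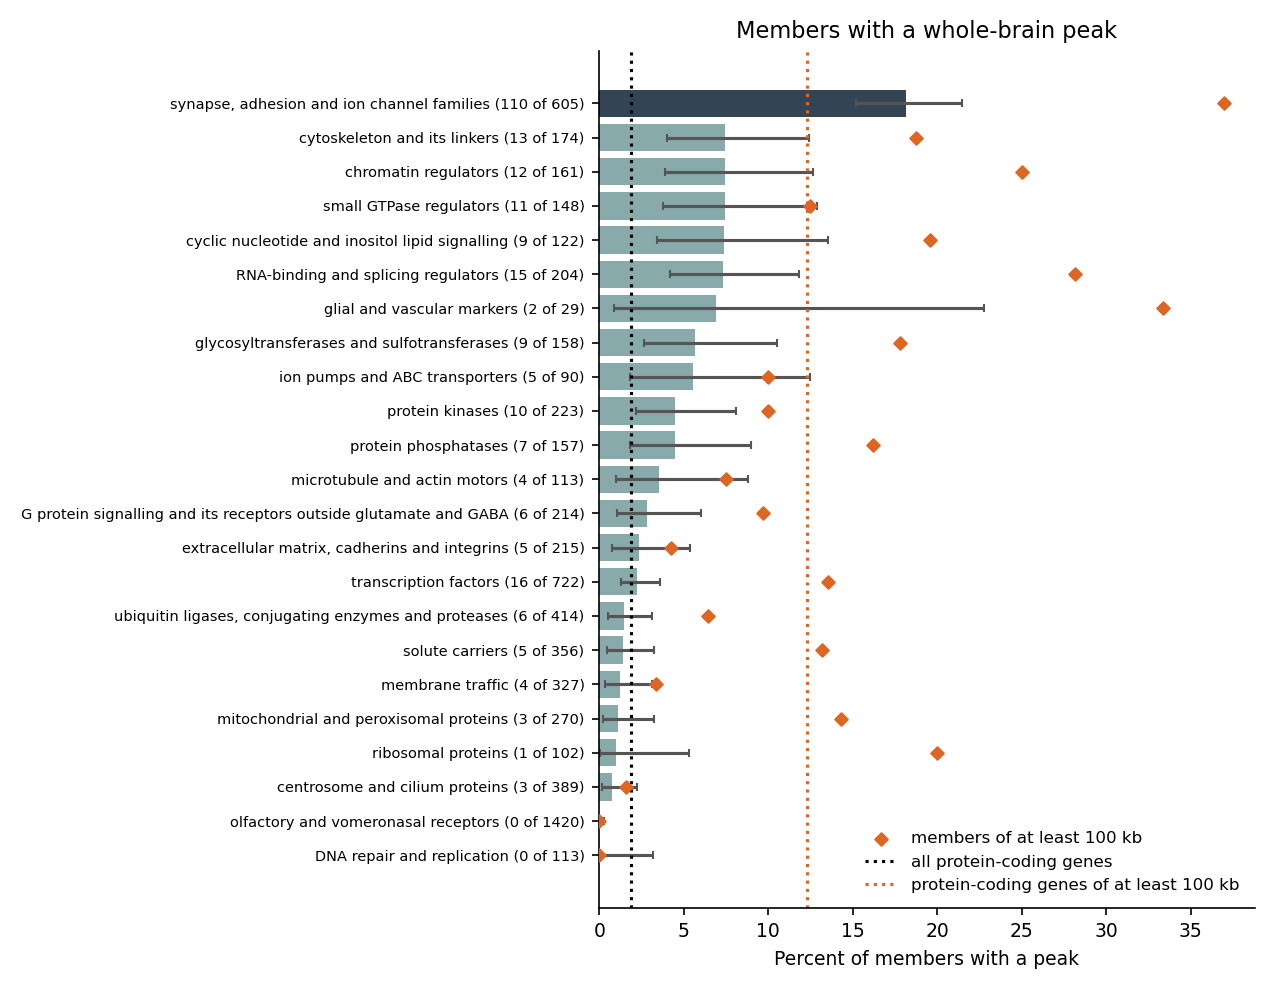
Percent of the members of each gene family that hold a whole-brain peak, with exact 95% binomial intervals, the synaptic collection in dark blue; diamonds are members of at least 100 kb, and dotted lines are all protein-coding genes (1.89%, black) and those of at least 100 kb (12.3%, orange). RNA-binding and chromatin genes of that length stand at 28.1% and 25.0%, and the olfactory receptors and the DNA repair genes at 0.

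Among the 160 protein-coding targets in no family, *Mdga2* had 28 peaks, *Phactr1* 24, and *Fam155a*, which encodes a subunit of the NALCN channel complex, 19. *Lrp1b* had 12, and *Lingo2* and *Fgf14* had 11 each. *Gpm6a*, which encodes a neuronal membrane glycoprotein, and the tetraspanin gene *Tspan5* had 9 each. *Ccser1* and *Frmd5* had 8, *Arpp21* 7 and the scaffold gene *Tanc2* 6. Shares with UWAA differed here as well, at 100% in *Lingo2*, *Lrp1b*, *Ccser1*, *Arpp21* and *Tanc2* but 33.3% in *Tspan5* (3 of 9). The strongest peaks of at least 50 nt outside the synaptic collection were in *Cdyl* (log2 fold change 4.94), the predicted gene *Gm20594* (4.81), *Apc*, which encodes a regulator of Wnt signalling (4.68), *Nrcam*, which encodes a neuronal adhesion molecule (4.65), *Rbfox3* (4.27) and the histone demethylase-like gene *Jmjd1c* (4.26).
Peaks were given to 20 non-coding genes, in an annotation of 55450 genes, of which 21951 are protein-coding. This count rests on the rule that places protein-coding genes first. With every gene that holds a peak centre, 467 genes had a peak, 421 of them protein-coding. Of the 20, 3 held at least 3 peaks. *Gm26871* had 14 over 74.6 kb, *Neat1* had 11, of which 9 formed its cluster, and *A330076H08Rik* had 8 within 12.7 kb. The peaks of *Gm26871* and *A330076H08Rik* held UWAA in 13 of 14 and in 8 of 8, those of *Neat1* in 6 of 11.
Of 29 markers of astrocytes, oligodendrocytes, microglia and vessels, 2 held a peak (6.90%, 0.846 to 22.8). This interval includes the 1.89% of all protein-coding genes. Both were among the 6 markers of at least 100 kb, beside 12.3% of all protein-coding genes of that length. *Mbp* held 13 peaks and the astrocyte transporter gene *Slc1a2* held 1. The defining markers *Gfap*, *Aqp4*, *Csf1r*, *Cx3cr1* and *Cldn5* held none. *Mbp* lies in a unit that neurons also transcribe from an upstream promoter, and the list does not tell the cell type in which the RNA was bound. Its 13 peaks had log2 fold changes of 2.01 to 3.06, with none in intron 1 of the coding transcript with the longest span.

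The hippocampal list was compared on 3 shares, because it comes from a part of the brain and its peaks were called in the same way. The paper states that the libraries of both tissues differed in the amount of tissue lysed and in the number of PCR cycles. Clusters held 34.4% of whole-brain peaks and 71 of 178 hippocampal peaks (39.9%, 32.6 to 47.5), a difference that did not pass the test (two-sided Fisher's exact test, p = 0.14, adjusted over the 3 shares p = 0.42). Intron 1 held 35.1% of intronic peaks in whole brain and 35.2% (26.9 to 44.1) in hippocampus (Fisher's exact test, adjusted p = 1). The first 20% of the gene held 28.9% and 28.1% (21.6 to 35.3; Fisher's exact test, adjusted p = 1). The intervals of the hippocampal shares are wide, and values that miss the threshold do not show the tissues to be alike.
The values for clusters turned with the peaks that were kept, and they are given as a description. Of the 71 clustered hippocampal peaks, 35 were in non-coding genes, with 16 in *Malat1* and 14 in *Meg3*, which held no whole-brain peak. In the 62 genes with peaks of both tissues, clusters held 43.3% of 924 whole-brain peaks and 22.4% of 107 hippocampal peaks. More peaks in the same genes leave shorter gaps, and the part of this in the difference was not tested. With hippocampal peaks kept only at a −log10 p of 2 or more, which left 83, the values were 34.4% and 66.3%. Each tissue has 1 merged list, so its peaks are not replicates of the tissue, and the p-values of the 3 shares are too small. Tissue, depth and library amplification cannot be told apart.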

How the data were processed

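The peaks come from 2 eCLIP and 2 size-matched input libraries of wild-type whole brain, with the hippocampal list of the same design for comparison. Per the submitters' processing notes, the authors used cutadapt 3.4, STAR 2.7.9 with mm10 and UMI-tools 1.1.1. They called peaks with CLIPper, merged the replicates by IDR, and kept peaks at thresholds of 2 for log2 fold change and −log10 IDR. The deposited log2 fold change is eCLIP over input. The authors also computed a −log10 p and a reproducibility score, the −log10 IDR. Columns are unnamed in the lists and were read after the order of the study's own peak table. A stricter threshold removes neighbours and so widens gaps, and a site entered as several close peaks counts several times.

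Genes, gaps, clusters (gaps of at most 500 nt, at least 2 peaks), positions and introns were computed with Python 3.11.15, numpy 2.4.6, pandas 2.3.3 and scipy 1.17.1, and sequence was read with pysam and samtools 1.23.1. A relative position is that of the peak centre within the gene. The functions were checked on made-up gene models with known answers. Shares have exact 95% binomial intervals. Whole brain and hippocampus were compared by Fisher's exact test with Benjamini-Hochberg adjustment over 3 shares and a threshold of 0.05. Genes are named by rule: the most peaks, density, clusters, extreme reach or position, the leading members of each family, and the strongest peaks outside the synapse. *Gria4*, *Tspan5* as the gene of lowest motif share among those in no family with at least 5 peaks, and markers without peaks, were singled out after their values were seen. The same holds for the motif by gene. Members and gene lists were chosen with earlier results of these data known. Alternatives covered other gene assignments, stricter thresholds, joined sites, other cluster limits and other transcripts. Knockout libraries, read counts and tracks were not used here. Some genes that the rule names are not reported here, although all counts include them.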

Additional observations from a re-analysis of the deposited data

How the results depend on the processing

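No paired analysis was possible because each tissue has 1 list merged over its replicates. Leaving out a replicate was not run, since the list has no column per replicate. The 3 other gene assignments were run for the number of genes and the concentration, which stayed within their intervals or within 1.5 times. The omission of peaks under 30 nt left these and the spacing, clusters and place within the same limits.

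With a minimum log2 fold change of 3 there were 220 genes, 213 of them protein-coding and 152 with 1 peak. The 10 leading genes held 25.9% of peaks and genes with at least 5 peaks 43.5%. The median gap was 22.6 kb, with 19.3% of gaps at most 500 nt, and 35 clusters held 17.7% of peaks. The first 20% of the gene held 26.3% and the median position was 0.41. Intron 1 held 32.4%, the longest intron 59.2%, and 79.5% of peaks held UWAA. Outside the synaptic collection 145 genes (0.679%) had a peak. At a −log10 IDR of at least 3 there were 116 genes, 111 of them protein-coding and 68 with 1 peak. The 10 leading genes held 36.2% of peaks and genes with at least 5 peaks 58.5%. The median gap was 8.395 kb, with 32.1% of gaps at most 500 nt, and 39 clusters held 32.6% of peaks. The longest intron held 60.7%. Outside the synaptic collection 65 genes (0.305%) had a peak. Fewer peaks were kept in both. The counts of family members with a peak depended on these thresholds. Of 22 families outside the synaptic collection, 6 stayed within the limits named above at the log2 fold change of 3. At the −log10 IDR of 3 it was 2 families, DNA repair and olfactory receptors, which had no peak at the start. With at least 2 peaks a gene it was 3.

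Joined sites gave a median gap of 5.61 kb and 20.3% of gaps at most 500 nt, and distances between centres gave 24.5%. In an alternative added after seeing the data, joined sites formed 210 clusters with 26.6% of the sites. Clusters at gaps of 100 nt numbered 164 and held 17.8% of peaks; at 1000 and 5000 nt they held 41.5% and 58.9%. There were 83 clusters of at least 3 peaks, with 16.2% of peaks. Each gene counted once gave 25.6% in the first 20%, a median position of 0.41 and 30.9% in intron 1, and the transcript with the most exons gave 31.5%. With at least 2 peaks a gene, 111 genes (0.52%) outside the synaptic collection were targets. With at least 1 peak, the share among genes of at least 100 kb outside the collection was 9.31%. Without *Rbfox3*, chosen after seeing the data like the other changes to the motif search, 84.7% of peaks held UWAA, and 91.2% with 50 nt added at each end.

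In genes with peaks of both tissues, whole brain minus hippocampus was 20.9 points for clusters, 2.02 for intron 1 and −1.59 for the first 20%. Without hippocampal peaks of −log10 p below 2, the difference was −31.9 points for clusters and −6.06 for the first 20%. The cause was not tested. The lists hold no read counts, so what depth limits cannot be given per peak.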
